A study of Rattus norvegicus with 9 samples.

Results

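The comparison of 3 weeks of chronic mild stress with vehicle covered 6 of the 9 libraries of the series, the 3 CMS libraries and the 3 Vehicle libraries, all made from medial prefrontal cortex (mPFC) of SD (Sprague-Dawley) rats. CMS rats were stressed without drug by a varying schedule of mild physical and housing stressors, such as restraint. Vehicle rats were not stressed. By the study's methods the rats were male and the carrier of the drug was sodium carboxymethyl cellulose, given to stressed rats as well in its behavioural groups. The remaining 3 libraries (CMS+PHL) came from stressed rats given phloretin, a dihydrochalcone of apples. They entered the fit to estimate the spread and are quoted only where they bear on a value. Age is not given in the sources used here, and the labels do not state whether each library was a rat of its own. The p-values therefore take as error only how these libraries varied within a group, which may be partly technical.

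The mPFC holds excitatory pyramidal neurons, inhibitory interneurons, astrocytes, microglia, vessels and the oligodendrocytes that wrap axons in myelin. Neuronal firing switches on immediate early genes, short-lived transcripts for transcription factors such as Fos and Egr1, and these in turn drive later genes that adjust synapses. Chronic stress acts on this region through the hypothalamic-pituitary-adrenal axis, whose hormone corticosterone binds the glucocorticoid receptor, and it is known for its effects on dendrites, synapses, glia and myelin there. Whole tissue was sequenced, so that fewer cells of a type and less RNA per cell cannot be told apart in any value that follows.

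Expression was given as FPKM, the fragments on a gene scaled to its length and to the depth of the library, for 34463 genes. The 16159 genes with a mean of at least 0.5 FPKM over the 9 libraries were tested with limma on log2(FPKM + 0.1), and log2 changes are on that scale, on which the change of a gene with low values comes out too small. Every rise, fall, difference, median or change below, and each bare value beside an SE, is a CMS minus Vehicle difference on this log2 scale unless FPKM or a multiple is named. The 6 libraries held 13913639 to 16328673 reads on genes. Of the genes tested, 613 (3.79%) passed an adjusted p of 0.05, with 428 (2.65%) higher and 185 (1.14%) lower in the CMS group. The lowest adjusted p was 0.0263 and was shared by 154 genes. At an unadjusted p under 0.05 there were 1768 higher genes (10.9%) and 1828 lower genes (11.3%), and the CMS and Vehicle libraries did not overlap for 2278 genes that stood higher in CMS (14.1%) and 2180 that stood lower (13.5%). Quantile normalization called 364 genes higher and 85 lower. These counts rested on all libraries: at most 1 gene passed once Vehicle replicate 1 or 2, or any of the CMS replicates, was left out, and 493 passed without Vehicle replicate 3. Leaving out CMS+PHL replicate 1, 2 or 3, which alters only the spread, gave 243, 798 and 399 genes. All 428 higher and all 185 lower genes called had CMS and Vehicle libraries that did not overlap. Leaving out 1 library could therefore not change their direction, and a lack of overlap adds nothing to a call. In the 6 fits without a CMS or Vehicle library all 613 genes kept an unadjusted p under 0.05. They had been chosen for a small p in the same libraries. Over all genes tested 7677 changes lay above 0 and 8482 below, with a median of -0.02, which is the level to hold beside the list medians given for each group of genes.

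Among the genes called, those that rose changed by more than those that fell. The median size of the change was 0.96 on the log2 scale for the 428 higher genes and 0.45 for the 185 lower genes. Among them 201 of the higher genes and 10 of the lower genes changed at least 2-fold. The median level was 13.1 FPKM for the higher genes and 44.1 FPKM for the lower genes. The fit lets the variance depend on the level, and the sizes were not compared at equal level. Of the higher genes 44 belonged to lists of oligodendrocyte, myelin and myelin lipid genes. The plot of change against level shows these myelin genes among the most abundant transcripts that rose.

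**Figure D1:**
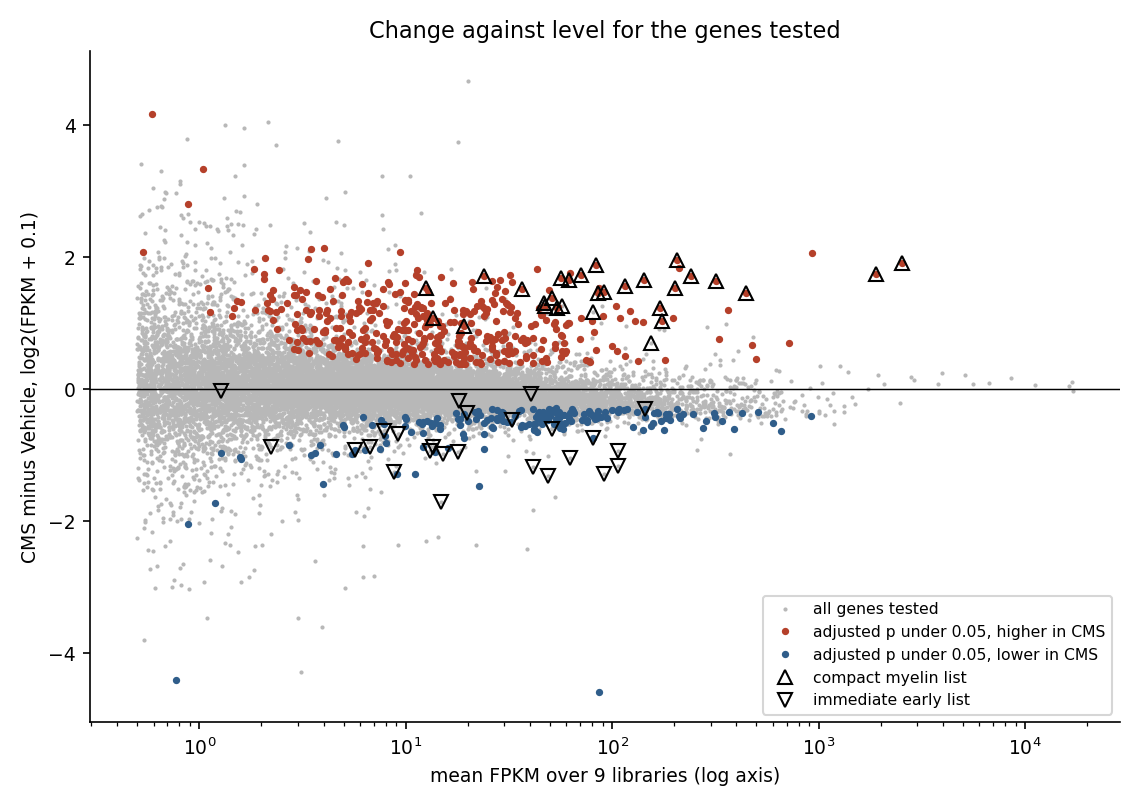
Mean FPKM over the 9 libraries (log axis) against the CMS minus Vehicle difference in log2(FPKM + 0.1) for the 16159 genes tested, with the 428 genes higher and the 185 lower at an adjusted p under 0.05 coloured. The compact myelin genes (triangles pointing up) lie between 0.70 and 1.96, and the immediate early genes (triangles pointing down) between -1.71 and -0.03.

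Myelin genes rose in the stressed cortex, and their list had the highest median of the 55 lists examined. The lists were chosen with earlier results of these data known, so this rank is a description only. Of 29 tested genes of compact myelin and mature oligodendrocytes, all 29 lay above 0 and 25 rose at an adjusted p under 0.05, where 2.65% of all genes did. Their median change was 1.52, against -0.02 over all genes. Mbp, which encodes the basic protein that holds the cytoplasmic faces of the myelin membrane together, was at 3578, 5283 and 4439.8 FPKM in the CMS libraries, against 1377, 957 and 1201 FPKM in the Vehicle libraries. The groups were far apart, the lowest CMS library standing above 2 times the highest Vehicle library, and the log2 change was 1.91 (SE 0.32; limma adjusted p = 0.0263). In Rnor_6.0, Mbp (ENSRNOG00000016516, on chromosome 18 from 79326738 to 79437310), had 200759 to 257556 reads per CMS library and 48559 to 74468 per Vehicle library.

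Other myelin proteins rose with them. Mag, a glycoprotein of the innermost myelin layer that faces the axon, was at 202, 259.6 and 236 FPKM in the CMS libraries and at 74.7, 65.3 and 79.7 FPKM in the Vehicle libraries, 3.17 times the Vehicle mean. Mobp, a small basic protein of compact myelin, had 325, 433 and 320.3 FPKM in CMS, against 99, 77.6 and 98.6 FPKM in Vehicle, a log2 change of 1.96 (SE 0.27; adjusted p = 0.0263). Both genes stood highest in CMS replicate 2 and lowest in Vehicle replicate 2. Bcas1, a protein of oligodendrocytes that are starting to myelinate, averaged 144 ± 40.5 FPKM in CMS and 38.6 ± 7.78 FPKM in Vehicle (SD, n = 3 each), with a log2 change of 1.88. Ermn, a cytoskeletal protein of late oligodendrocytes, averaged 122 ± 18 FPKM in CMS and 36.6 ± 0.774 FPKM in Vehicle (SD, n = 3 each). Ndrg1, a cytosolic protein needed for the upkeep of myelin sheaths, had the smallest p of the list. Its level was 69.6, 87.5 and 76.3 FPKM in the CMS libraries and 32, 32 and 34.5 FPKM in the Vehicle libraries, a log2 change of 1.24 (SE 0.14), with all 3 Vehicle libraries within 3 FPKM of each other. The gene (ENSRNOG00000007393, on chromosome 7 from 107734323 to 107775714 of Rnor_6.0) kept a log2 change between 1.15 and 1.31 whichever library was left out.

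**Figure D2:**
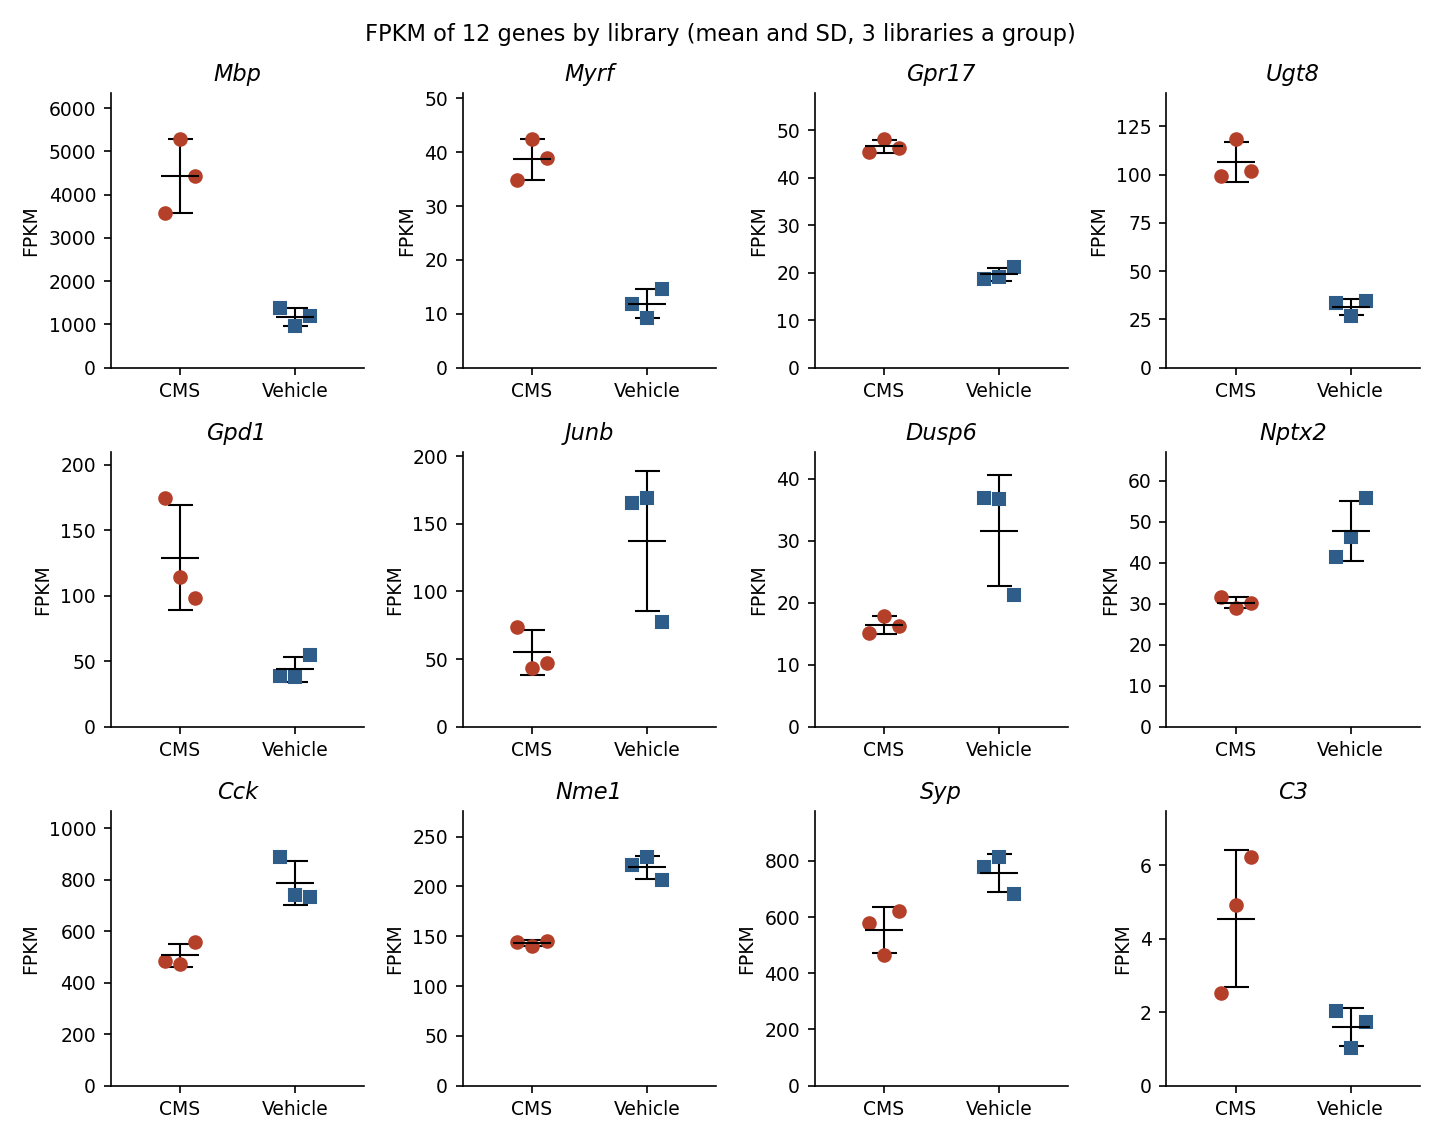
FPKM of 12 genes in each library, CMS (circles) left and Vehicle (squares) right, with the mean and the SD of 3 libraries; every vertical axis starts at 0. Mbp, Myrf, Gpr17, Ugt8 and Gpd1 show CMS libraries above all Vehicle libraries, and in Junb and Dusp6 the third Vehicle library lies close to the CMS libraries.

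Among the protein-coding genes that rose most several were on none of the lists. Anln, an actin-binding protein of dividing cells that is also abundant in myelin, was at 15.9, 19.3 and 15.7 FPKM in CMS, against 3.1, 3.75 and 5.25 FPKM in Vehicle (4.2 times, log2 change 2.07, SE 0.29, adjusted p = 0.0263). Tf, the iron carrier transferrin, which oligodendrocytes make in the brain, stood at 298, 429 and 351 FPKM in CMS and 103, 84.8 and 112 FPKM in Vehicle, a log2 change of 1.84 (SE 0.29). Lpar1, a receptor for lysophosphatidic acid, was at 61.7, 81.6 and 74.6 FPKM in CMS and 20.9, 18 and 22.6 FPKM in Vehicle, and Enpp2, the enzyme that makes its ligand and a member of the myelin list, at 57, 80.3 and 74.3 FPKM in CMS and 29.6, 28.5 and 28.9 FPKM in Vehicle. Both passed the test, with log2 changes of 1.82 for Lpar1 and 1.26 for Enpp2 and no overlap between the groups. Ninj2 (nerve injury induced protein), Prr5l (a partner of the kinase complex mTORC2) and Ankub1 followed, with log2 changes of 1.91, 2.12 and 1.98. Prr5l was uneven within the CMS group, at 3.77, 8.82 and 5.42 FPKM, against 1.32, 0.718 and 1.89 FPKM in Vehicle.

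Enzymes of myelin lipids rose as well. Of 19 tested genes for galactolipids and very long chain lipids 10 rose and none fell at an adjusted p under 0.05, with a median change of 0.69. The list median was 0.56 without CMS replicate 2. Ugt8, which adds galactose to ceramide to form the main glycolipid of myelin, was at 99.3, 118 and 102 FPKM in the CMS libraries and at 33.5, 26.7 and 34.5 FPKM in the Vehicle libraries (log2 change 1.76, SE 0.26, adjusted p = 0.0263). Fa2h, which hydroxylates the fatty acids of these lipids, had 45.4, 60.2 and 53.5 FPKM in CMS, against 16.1, 14 and 17.5 FPKM in Vehicle. Gal3st1, which turns the glycolipid into sulfatide, had 15.7, 20.01 and 17.7 FPKM in CMS, against 7.04, 5.14 and 7.34 FPKM in Vehicle. The 3 enzymes, which act in sequence on one lipid, thus stood 3.37, 3.35 and 2.74 times their Vehicle means. Cers2 and Elovl1, which make very long chain ceramides and fatty acids, rose by 1.18 (SE 0.18) and 1.27 (SE 0.22), Gltp, a glycolipid transfer protein, by 1.12 and Hacd1, a dehydratase of fatty acid elongation, by 1.20. Cholesterol is the other main lipid of myelin. Of 24 genes of its synthesis and uptake 1 passed, and the median was 0.09. That gene was Ebp, a sterol isomerase, at 13.9, 14.8 and 11.3 FPKM in CMS and 8.69, 9.77 and 8.75 FPKM in Vehicle (log2 change 0.55, SE 0.11, adjusted p = 0.0393), but voom, run on reads recovered from the table, did not call it (adjusted p = 0.0544).

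Transcription factors of the oligodendrocyte lineage stood higher as well. Among 15 of them 14 lay above 0, 5 rose and none fell, with a median of 0.87. Myrf, the membrane-bound factor that switches on myelin genes and is held on the myelin list, was at 34.8, 42.4 and 38.9 FPKM in the CMS libraries, against 11.9, 9.25 and 14.6 FPKM in the Vehicle libraries, a log2 change of 1.71 (SE 0.25; adjusted p = 0.0263). Sox10, which acts with Myrf at these genes, was at 41.8, 52 and 47.4 FPKM in CMS and 19, 17.6 and 21.1 FPKM in Vehicle. Olig1, a lineage factor, had 148, 198 and 173 FPKM in CMS and 74.4, 74.1 and 78.5 FPKM in Vehicle. In both genes all CMS libraries stood well above all Vehicle libraries, and both passed (log2 change 1.29, SE 0.24, for Sox10 and 1.18, SE 0.23, for Olig1). Nkx6-2, St18 and Zfp536 rose by 1.65, 1.81 and 0.87. Olig2, the partner of Olig1, stood at 25, 36.6 and 37.4 FPKM in CMS and 15.3, 14.7 and 16.3 FPKM in Vehicle without overlap, but its adjusted p was 0.0755.

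Precursor genes also stood higher. Of 15 genes of precursors and committed precursors all 15 lay above 0, 4 passed, and the median was 0.63. Gpr17, a receptor of committed precursors just before myelination, was at 45.4, 48.1 and 46.3 FPKM in CMS and at 18.6, 19.1 and 21.3 FPKM in Vehicle, with a spread of under 3 FPKM in each group (log2 change 1.24, SE 0.17, adjusted p = 0.0263). The gene (ENSRNOG00000025745, on chromosome 18 from 24734330 to 24735349 of Rnor_6.0) had 710 to 783 reads per CMS library and 293 to 308 per Vehicle library. Enpp6, a phosphodiesterase of newly formed oligodendrocytes, had 8.64, 10.1 and 7.14 FPKM in CMS, against 3.65, 1.93 and 2.69 FPKM in Vehicle, a log2 change of 1.64 (SE 0.28). Vcan and Tnr, matrix proteins made by precursors, rose by 0.91 and 0.53. Pdgfra, the growth factor receptor that defines dividing precursors, was at 16.9, 19.1 and 17.1 FPKM in CMS and 12.8, 14.2 and 14.8 FPKM in Vehicle. Its groups did not overlap, but its change was 0.34 (SE 0.09) and did not pass (adjusted p = 0.0639). Cspg4, another marker of precursors, was at 0.36 (SE 0.13, adjusted p = 0.153). Of 18 tested cell cycle genes 14 lay above 0, with a median of 0.31, and 0 passed limma or voom, with 0 higher and 2 lower at an unadjusted p under 0.05. The mean of that list was 0.57, 0.40 and 0.47 in CMS and -0.48, -0.18 and 0.66 in Vehicle, with Vehicle replicate 3 the highest library. Leaving out single libraries put its median between 0.17 (without Vehicle replicate 1) and 0.43 (without Vehicle replicate 3), and between 0 and 8 genes were then higher at an unadjusted p under 0.05.

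The sequences before the start sites are shown because Sox10 rose together with genes that it is known to act on. RefSeq (GRCr8) windows were matched for 37 of 48 tested genes of the myelin and myelin lipid lists, and those of the 4 matched genes with the smallest p, Mobp, Ugt8, Apod and Cers2, were searched on both strands for the Sox site ACAAAG, which 16% of the 27457 windows of 250 bases hold. The window of Mobp held 8 copies, in a run of similar short repeats, that of Apod (apolipoprotein D, a lipid carrier) held 2, and those of Ugt8 and Cers2 held 0. Apod was at 262, 429.8 and 302 FPKM in CMS and 116, 96.4 and 126 FPKM in Vehicle (log2 change 1.53, SE 0.23, adjusted p = 0.0263). The 250 bases before each start are written 5′ to 3′ with the matches in capitals, where CTTTGT is the same site on the other strand. A match describes the letters only.
Mobp (chr8:128746982-128747231, plus strand): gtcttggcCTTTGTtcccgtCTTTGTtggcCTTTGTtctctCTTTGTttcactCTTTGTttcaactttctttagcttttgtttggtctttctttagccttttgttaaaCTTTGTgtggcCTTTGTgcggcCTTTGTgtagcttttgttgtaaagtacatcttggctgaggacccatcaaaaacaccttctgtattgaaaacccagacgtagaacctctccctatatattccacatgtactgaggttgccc
Apod (chr11:82935970-82936219, plus strand): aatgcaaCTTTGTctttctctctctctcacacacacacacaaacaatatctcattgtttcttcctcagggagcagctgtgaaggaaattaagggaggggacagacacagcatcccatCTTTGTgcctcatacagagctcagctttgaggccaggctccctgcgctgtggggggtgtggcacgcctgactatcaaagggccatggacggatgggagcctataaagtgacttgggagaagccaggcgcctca

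At the contact between myelin and axon the genes of both sides were measured. Of 17 genes of the node of Ranvier, the paranode and the axon initial segment 5 rose and none fell, while the median of the list was 0.01. Nfasc, an adhesion protein with one form in oligodendrocytes at the paranode and another in neurons at the node, was at 53.3, 55.4 and 51.9 FPKM in CMS and 28.3, 25.5 and 28.7 FPKM in Vehicle (log2 change 0.96, SE 0.16). Cntn2, an adhesion protein beside the paranode, was at 30.8, 38.8 and 36.2 FPKM in CMS and 15.6, 14.7 and 15.1 FPKM in Vehicle, and the groups were clear of each other. Kcna1, the axonal potassium channel gathered there, rose by 0.52 (SE 0.09) and Ank3, the scaffold of the axon initial segment, by 0.48 (SE 0.10). Matrix proteins of the node and the perineuronal net gave 4 higher genes of 23. Adamts4, a protease made by oligodendrocytes, had 15.6, 21.2 and 18.8 FPKM in CMS, against 5.99, 4.7 and 5.89 FPKM in Vehicle, and Hapln2, a link protein of the node, 81.7, 116 and 87.1 FPKM in CMS, against 33.3, 22 and 33.3 FPKM in Vehicle.

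**Figure D3:**
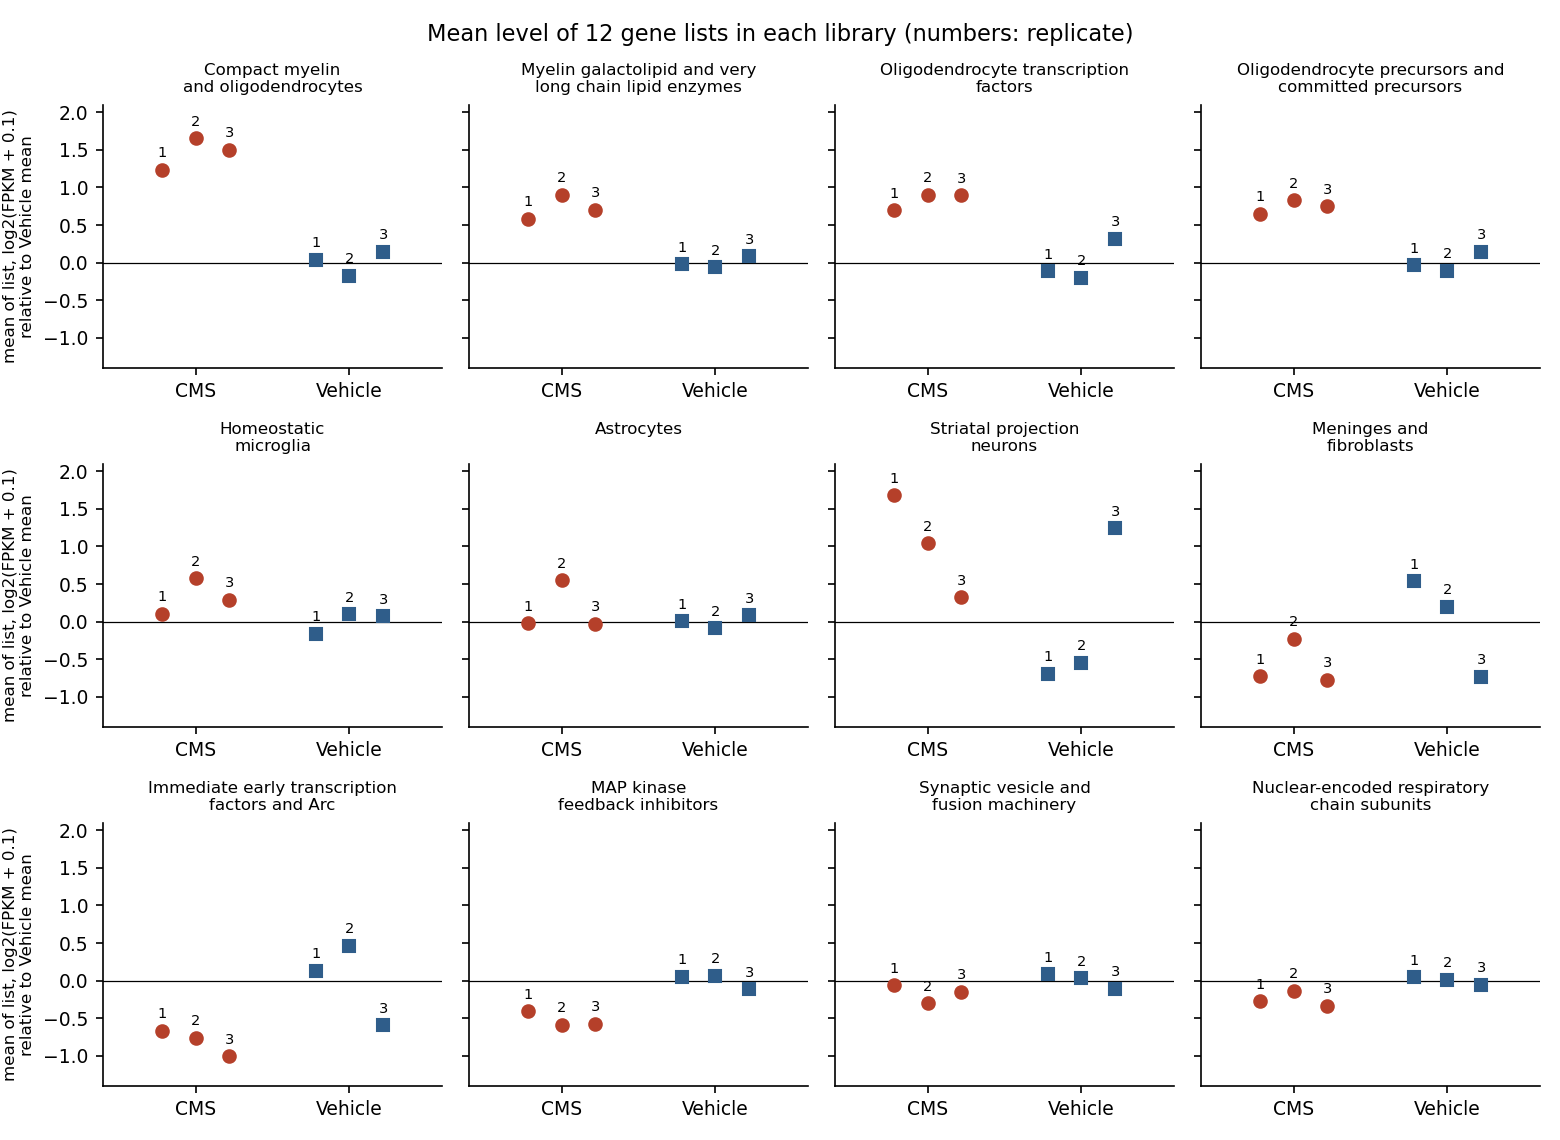
Mean log2(FPKM + 0.1) over the tested genes of 12 lists in each library, relative to the mean of the Vehicle libraries, with CMS left and Vehicle right and replicate numbers at the points. In the 4 oligodendrocyte lists all CMS libraries lie above all Vehicle libraries, whereas the striatal and meningeal lists set Vehicle replicate 3 apart from the other 2 Vehicle libraries.

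Markers of neighbouring tissue varied within the groups, and their values stand here beside the myelin result. The mean of the myelin list, relative to the Vehicle mean on the log2 scale, was 1.24, 1.65 and 1.5 in CMS replicates 1 to 3 and 0.04, -0.18 and 0.14 in Vehicle replicates 1 to 3. The CMS+PHL libraries stood at 0.23, 1.07 and 0.09, the second of them near the CMS libraries. Over the same libraries the mean of 19 markers of striatal projection neurons, the main cell type of the striatum, which lies behind and below the mPFC, was 1.68, 1.04 and 0.33 in CMS and -0.69, -0.55 and 1.25 in Vehicle. For striatal markers Vehicle replicates 1 and 2 lay below all CMS libraries, and Vehicle replicate 3 lay within the CMS range. For myelin all Vehicle libraries lay below all CMS libraries. CMS replicate 3 was lowest of its group in striatal markers and CMS replicate 1 in myelin. In the CMS+PHL libraries the striatal mean was -0.47, -0.34 and -0.59. Of the striatal genes 18 lay above 0 with a median of 0.86 (1.31 without Vehicle replicate 3), and 0 passed limma or voom (8 higher at an unadjusted p under 0.05). Their summed level was 1095, 734 and 470.0 FPKM in CMS and 288, 304 and 797 FPKM in Vehicle, and the dopamine receptors Drd1 and Drd2, which define these cells, were at 0 in no library. Adora2a, an adenosine receptor of these neurons, was at 33.4, 20.7 and 10.04 FPKM in CMS and 2.76, 2.73 and 22.1 FPKM in Vehicle. The part of striatal tissue, or of white matter, in the myelin result was not tested.

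Markers of other tissues gave smaller or uneven values. For 24 genes of meninges and fibroblasts the mean was -0.73, -0.23 and -0.77 in CMS and 0.54, 0.20 and -0.74 in Vehicle, and the summed level was 476, 594 and 442 FPKM in CMS and 1177, 945 and 295 FPKM in Vehicle. The list median was -0.62 and 0 genes passed limma or voom (5 lower at an unadjusted p under 0.05), and without Vehicle replicate 3 the median was -1.13. Ttr, a carrier of thyroid hormone that the choroid plexus makes in great amounts, rose by 2.80 (SE 0.45; adjusted p = 0.0263), more than any other protein-coding gene called. It was at 1.2, 2.47 and 2.06 FPKM in CMS and 0.178, 0.284 and 0.1 FPKM in Vehicle. These values rest on 14, 25 and 24 reads in CMS, against 2, 3 and 1 reads in Vehicle, and the ratio of the reads at equal depth was 9.97 with a 95% interval of 4.33 to 28.2 that covers counting error only. Of 13 genes of choroid plexus and ependyma, Ttr and Enpp2 rose and none fell. The share of reads on genes of the mitochondrial genome was 9.67%, 13.9% and 9.70% in CMS and 10.3%, 9.74% and 10.6% in Vehicle (p = 1.0 in a two-sided exact permutation test, which with 3 libraries a group cannot go below 0.1), so that CMS replicate 2 stood apart.

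Among 23 astrocyte markers 2 rose and none fell, with a median of 0.14 (0.00 without CMS replicate 2). Gfap, the intermediate filament of astrocytes, was at 146, 229 and 216 FPKM in the CMS libraries and 86.2, 85.3 and 117 FPKM in the Vehicle libraries (log2 change 1.02, SE 0.19, adjusted p = 0.0308). Hepacam, an adhesion protein of astrocytes that oligodendrocytes also make, had 49, 50.7 and 44.4 FPKM in CMS, against 30.3, 25.4 and 32.6 FPKM in Vehicle. Aqp4, the water channel of their endfeet, was at 92.2, 127 and 108 FPKM in CMS and 82.1, 81.9 and 110.2 FPKM in Vehicle with overlapping groups. The mean of the list was -0.02, 0.55 and -0.03 in CMS and 0.00, -0.09 and 0.09 in Vehicle, so that only CMS replicate 2 stood clear of the Vehicle libraries. Of 19 genes of reactive astrocytes 10 lay above 0 and 9 below, with a median of 0.005. Gfap and Cd44, an adhesion receptor on reactive astrocytes and other cells, passed limma, Cd44 with a rise of 1.18 (SE 0.24), and voom called 2 higher and 1 lower. Of 24 genes of endothelium and the blood-brain barrier 17 lay above 0, with a median of 0.12 (-0.02 without CMS replicate 2). Of them 2 rose and none fell, namely Slc16a1, a transporter of lactate, by 0.74 and Tjp1, a protein of tight junctions, by 0.54. Of 17 genes of pericytes and smooth muscle 9 lay above 0, with a median of 0.18 (-0.08 without CMS replicate 2 and 0.36 without CMS replicate 1), and only Mcam, an adhesion protein, passed in limma, with a rise of 1.19. For Slc16a1 CMS replicate 2 was highest, at 29.3, 43.3 and 31.3 FPKM in CMS and 21.2, 19.4 and 20.8 FPKM in Vehicle.

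Immediate early genes stood lower in the stressed cortex. All 25 tested immediate early genes lay below 0, 3 of them passed, where 1.14% of all genes fell, and the median change was -0.88. At an unadjusted p under 0.05 16 were lower, and voom called 6. Csrnp1, a nuclear factor of the AXUD family, was at 3.94, 4.52 and 3.25 FPKM in CMS and 7.6, 9.27 and 5.69 FPKM in Vehicle and fell by 0.91 on the log2 scale (SE 0.19; adjusted p = 0.0393). Ier5, an immediate early regulator, was at 64.5, 66.5 and 47.7 FPKM in CMS and 117, 106 and 77.7 FPKM in Vehicle and fell by 0.74 (SE 0.17; adjusted p = 0.0469). Jund, the Jun family member that is always present in neurons, was at 119, 126 and 129.8 FPKM in CMS and 156, 148 and 155 FPKM in Vehicle and fell by 0.29 (SE 0.06; adjusted p = 0.0429). In these 3 genes, as in all 185 lower genes called, every CMS library lay below every Vehicle library.

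The classical members of the group had larger changes that did not pass. Junb, a partner of Fos in the AP-1 factor, was at 74, 43.6 and 47 FPKM in CMS and 166, 169 and 77.7 FPKM in Vehicle, a log2 change of -1.28 (SE 0.30; adjusted p = 0.051, and 0.0327 by voom). Fos itself was at 35.7, 17.2 and 24.1 FPKM in CMS and 69.1, 85 and 29.1 FPKM in Vehicle (-1.17, SE 0.38, adjusted p = 0.115). Egr1, a zinc finger factor, was at 84, 67 and 59.8 FPKM in CMS and 167, 175 and 81.1 FPKM in Vehicle (-0.94, SE 0.26, adjusted p = 0.0842). In each of these genes Vehicle replicate 3 stood well below the other 2 Vehicle libraries and near the CMS libraries. Arc, which carries AMPA receptors away from synapses, was at 88, 102 and 40.05 FPKM in CMS and 207, 171 and 112 FPKM in Vehicle (-1.15, SE 0.39, adjusted p = 0.127). The mean of the list was -0.67, -0.76 and -1.01 in CMS and 0.13, 0.47 and -0.60 in Vehicle, relative to the Vehicle mean. The meningeal list, at -0.73, -0.23 and -0.77 in CMS and 0.54, 0.20 and -0.74 in Vehicle, also had Vehicle replicate 3 as its lowest Vehicle library. The part of tissue composition in the lower immediate early genes was not tested. Without Vehicle replicate 3 the median of the list was -1.17, and without Vehicle replicate 2 it was -0.57. These transcripts last for minutes, and the time between the last handling and the removal of the tissue is not given in the sources used here.

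Inhibitors that feed back on the MAP kinase cascade, through which neuronal activity reaches these genes, were lower too. Of 14 genes all 14 lay below 0 and 4 fell, with a median of -0.40. The median was -0.26 without CMS replicate 2. Dusp6, a phosphatase that switches off ERK, was at 15.1, 17.9 and 16.3 FPKM in CMS and 36.9, 36.8 and 21.2 FPKM in Vehicle and fell by 0.90 (SE 0.19; adjusted p = 0.0419). Dusp4, a nuclear phosphatase of the same family, was at 5.77, 4.78 and 5.34 FPKM in CMS and 7.87, 9.96 and 10.6 FPKM in Vehicle, and here every Vehicle library was clear of the CMS libraries. Dusp5 fell by 0.99 (SE 0.22) and Rasl11a, a small GTPase of the Ras family, by 1.29 (SE 0.21; adjusted p = 0.0263). Dusp1, the phosphatase that also responds to glucocorticoids, was at 52.9, 62.4 and 48.2 FPKM in CMS and 94.9, 116 and 54.5 FPKM in Vehicle and overlapped.

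Of 29 later effectors of neuronal activity 22 lay below 0 and 7 above, 2 fell and none rose, with a median of -0.42. The changes ran from -1.28 to 1.00. At an unadjusted p under 0.05 14 were lower and 3 higher, and voom called 5 lower and 1 higher. Nptx2, a secreted pentraxin that gathers AMPA receptors on interneurons, was at 31.7, 28.9 and 30.1 FPKM in the CMS libraries and 41.5, 46.2 and 55.7 FPKM in the Vehicle libraries, and the highest CMS library lay well under the lowest Vehicle library (log2 change -0.65, SE 0.11, adjusted p = 0.0263). The gene is ENSRNOG00000001006, on chromosome 12 from 12013911 to 12025549 of Rnor_6.0. Here Vehicle replicate 3 was the highest library, whereas it was the lowest Vehicle library for Junb, Fos and Egr1. Nptxr, its membrane-bound partner, fell by 0.48 (SE 0.11). Ptgs2, the inducible cyclooxygenase of excitatory neurons, was at 8.16, 4.96 and 6.34 FPKM in CMS and 17.9, 21 and 10.2 FPKM in Vehicle and fell by 1.28 (SE 0.27; adjusted p = 0.0397). Bdnf, the neurotrophin whose transcription follows activity, was at 6.91, 2.73 and 5.45 FPKM in CMS and 9.96, 9.85 and 9.79 FPKM in Vehicle. Its Vehicle libraries were nearly equal and its CMS libraries lay apart from each other, and the change of -1.06 (SE 0.28) did not pass in limma (adjusted p = 0.0685) but did in voom (adjusted p = 0.0404).

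The start regions of the immediate early genes are shown because this group responds through known elements. RefSeq windows were matched for 16 of the 25 tested genes, and the 6 matched genes with the smallest p were Jund, Ier5, Junb, Nr4a1, Egr1 and Egr2. They were searched on both strands for the full cAMP response element TGACGTCA, the serum response element (CArG box), which serum response factor binds, and the AP-1 site TGANTCA. Of the 27457 windows of 250 bases 1.7% hold the full cAMP response element, 1.5% the serum response element and 6.36% the AP-1 site. Jund held 1 full cAMP response element, Egr1 held 2 serum response elements and Egr2 held 1, and none of the 6 windows held the AP-1 site. The windows of Jund, Egr1 and Egr2, written 5′ to 3′ with the matches in capitals, are given as letters, and whether a factor was bound there was not measured.
Jund (chr16:18769772-18770021, minus strand): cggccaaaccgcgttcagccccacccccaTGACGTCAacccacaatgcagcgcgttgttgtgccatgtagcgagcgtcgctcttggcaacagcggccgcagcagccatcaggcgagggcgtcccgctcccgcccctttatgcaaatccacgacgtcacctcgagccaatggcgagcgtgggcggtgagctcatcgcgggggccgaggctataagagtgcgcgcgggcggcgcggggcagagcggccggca
Egr1 (chr18:26736828-26737077, plus strand): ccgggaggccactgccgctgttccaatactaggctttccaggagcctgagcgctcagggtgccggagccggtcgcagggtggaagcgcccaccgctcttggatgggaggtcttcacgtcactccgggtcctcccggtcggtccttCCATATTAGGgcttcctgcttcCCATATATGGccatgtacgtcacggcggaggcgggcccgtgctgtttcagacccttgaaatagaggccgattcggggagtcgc
Egr2 (chr20:21054442-21054691, minus strand): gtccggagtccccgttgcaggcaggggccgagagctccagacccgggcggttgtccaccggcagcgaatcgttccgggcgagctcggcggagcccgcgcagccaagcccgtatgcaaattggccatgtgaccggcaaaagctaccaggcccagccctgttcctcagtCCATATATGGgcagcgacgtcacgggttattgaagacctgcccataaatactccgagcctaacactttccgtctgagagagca

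Most markers of excitatory neurons and of all neurons showed small decreases in level, few of which passed, while genes of cortical layers did not share them. Of 19 genes of excitatory neurons 16 lay below 0 and 2 fell, with a median of -0.31, and of 18 genes found in all neurons 14 lay below 0 and 1 fell, with a median of -0.32. The mean of the latter list was -0.28, -0.13 and -0.36 in CMS and 0.18, -0.02 and -0.16 in Vehicle, with overlap. Of 25 genes of cortical layers, some of them also on the excitatory list, 16 lay above 0 and 9 below. In that list 1 rose and none fell, with a median of 0.13. Slc17a7, the vesicular glutamate transporter of cortical pyramidal neurons, was at 447, 389 and 472 FPKM in CMS and 608, 631 and 495 FPKM in Vehicle, abundant in every library of this cortical tissue, and its change of -0.40 (SE 0.11) did not pass (adjusted p = 0.0768). Stmn2, a regulator of microtubules in growing axons, fell by 0.43 (SE 0.08; adjusted p = 0.0348), at 183, 165 and 190.0 FPKM in CMS and 245, 249 and 231 FPKM in Vehicle. Rbfox3, which encodes the nuclear antigen NeuN, was at 56.1, 68.7 and 48.6 FPKM in CMS and 71.1, 63.2 and 56 FPKM in Vehicle (-0.14, SE 0.13), and its groups overlapped. Camk2a, an abundant kinase of excitatory synapses, also overlapped, with CMS replicate 2 the highest of all 6 libraries (505, 773 and 502 FPKM in CMS and 646, 623 and 597 FPKM in Vehicle).

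Few genes of the synapse passed. Of 31 genes of synaptic vesicles and fusion 23 lay below 0, 1 fell, and 12 were lower at an unadjusted p under 0.05 (median -0.25, and -0.16 without CMS replicate 2). Over all genes tested 1.14% fell and 11.3% were lower at an unadjusted p under 0.05. Stx1a, a SNARE of the presynaptic membrane, was at 114, 129 and 131 FPKM in CMS and 197, 193 and 146 FPKM in Vehicle and fell by 0.51 (SE 0.12; adjusted p = 0.0498). Syp, which encodes synaptophysin, was at 578, 465 and 621 FPKM in CMS and 778, 813 and 682 FPKM in Vehicle, without overlap, and its change was -0.46 (SE 0.12; adjusted p = 0.0687). Of 23 postsynaptic scaffolds 0 passed limma or voom, with 1 higher and 4 lower at an unadjusted p under 0.05. Dlg4, which encodes PSD-95, was at 218, 260.3 and 203 FPKM in CMS and 270.3, 236 and 239 FPKM in Vehicle, and the groups overlapped. Cacng3, an auxiliary subunit of AMPA receptors, fell by 0.45 (SE 0.10), Camk1 by 0.57 (SE 0.11) and Kcnk1, a potassium leak channel, by 0.40 (SE 0.08). Of 20 genes of AMPA, NMDA and kainate receptors 9 lay above 0 and 11 below, 1 fell and none rose, and 6 were lower and 0 higher at an unadjusted p under 0.05. Of 18 genes listed with calcium/calmodulin-dependent kinases 16 lay below 0, 1 fell and none rose, and 6 were lower and 0 higher at an unadjusted p under 0.05. Of 33 potassium channel genes 1 fell and 1 rose, and 6 were lower and 2 higher at an unadjusted p under 0.05. Of 38 genes of G proteins and their regulators 1 fell and 2 rose. Gng3, the G protein subunit of neurons that acts at presynaptic channels, was at 152, 152 and 154 FPKM in CMS and 208, 211 and 203 FPKM in Vehicle and fell by 0.44 (SE 0.07; adjusted p = 0.0263). Grm3, a glutamate receptor of glia and neurons, went the other way and rose by 0.87 (SE 0.15).

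Among the genes that fell were 3 neuropeptides of interneurons, while the whole list of interneuron genes overlapped between the groups. Of its 22 tested genes 7 lay above 0 and 15 below, 1 rose and 3 fell. Its median was -0.16 (-0.02 without Vehicle replicate 3). The mean of that list was 0.13, -0.26 and -0.12 in CMS and -0.12, -0.14 and 0.27 in Vehicle. Of 30 genes of stress peptides, opioids and their receptors 3 fell and none rose, with a median of -0.34 (-0.14 without CMS replicate 2). The 3 genes that fell, Cck, Sst and Vip, are the same in both lists, and Cck is also counted among the genes of excitatory neurons. Cck, cholecystokinin, made by basket cells and by many pyramidal neurons, was at 485, 473 and 558 FPKM in the CMS libraries and 887, 739 and 733 FPKM in the Vehicle libraries and fell by 0.64 (SE 0.13; adjusted p = 0.037). Sst, somatostatin, which marks interneurons that act on dendrites, was at 329, 319 and 322 FPKM in CMS, where the 3 libraries were nearly equal, and at 439.7, 394 and 397 FPKM in Vehicle. Vip, which marks interneurons that act on other interneurons, was at 18.4, 18 and 21.5 FPKM in CMS and 31.8, 26.1 and 24.8 FPKM in Vehicle. Sst fell by 0.34 (SE 0.07; adjusted p = 0.0417) and Vip by 0.51 (SE 0.11; adjusted p = 0.0423). Gad1, the main enzyme of GABA synthesis in all interneurons, was at 60.5, 42.9 and 48.8 FPKM in CMS and 57.8, 54.9 and 65.3 FPKM in Vehicle and overlapped. Crh, the hypothalamic releasing hormone that cortical interneurons also make, had 5.68, 4.51 and 6.86 FPKM in CMS and 7.87, 8.95 and 7.48 FPKM in Vehicle, without overlap, but did not pass (adjusted p = 0.231). Of 13 GABA-A receptor subunits 0 passed limma or voom (2 lower at an unadjusted p under 0.05). Prox1, a transcription factor of caudal interneurons and of oligodendrocytes, rose by 1.20 (SE 0.25).

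Genes of the glucocorticoid response were mixed. Of 30 receptors and targets 15 lay above 0 and 15 below, 2 rose and none fell. Gpd1, a glycerol-3-phosphate dehydrogenase that oligodendrocytes make under glucocorticoids, was at 174, 114 and 98.2 FPKM in CMS and 38.6, 38 and 54.9 FPKM in Vehicle (log2 change 1.53, SE 0.25, adjusted p = 0.0263), and CMS replicate 1 was highest. The gene is ENSRNOG00000056457, on chromosome 7 from 141370491 to 141377928 of Rnor_6.0. Within its group CMS replicate 1 had the lowest mean of the myelin list (1.24) and the highest mean of the striatal list (1.68). The cause of its high Gpd1 was not tested. Arrdc2, an arrestin-like protein, was at 13.4, 14.4 and 12.8 FPKM in CMS and 9.3, 8.55 and 8.11 FPKM in Vehicle and rose by 0.64 (SE 0.11). Fkbp5, the co-chaperone that glucocorticoids induce in most tissues, was at 17.1, 14.1 and 9.9 FPKM in CMS and 11.5, 10.3 and 13.7 FPKM in Vehicle and overlapped (0.18, SE 0.24). Nr3c1, the glucocorticoid receptor, was at 18.1, 20.5 and 17.8 FPKM in CMS and 16.7, 14.4 and 16.5 FPKM in Vehicle (0.24, SE 0.10, adjusted p = 0.21). Sgk1, a kinase that the hormone induces, was at 34.6, 29.5 and 30.1 FPKM in CMS and 19.4, 29.8 and 14.3 FPKM in Vehicle, with Vehicle replicate 2 as high as the CMS libraries.

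Microglial and complement genes stood slightly higher, and none passed in either list. Of 28 genes of homeostatic microglia, 27 lay above 0 with a median of 0.27 (0.14 without Vehicle replicate 1). Of these genes 0 passed limma or voom, with 6 higher at an unadjusted p under 0.05 and 2 to 9 when single libraries were left out. The mean of the list was 0.10, 0.58 and 0.29 in CMS and -0.17, 0.10 and 0.07 in Vehicle, and CMS replicate 1 lay level with Vehicle replicates 2 and 3. Cx3cr1, the receptor for neuronal fractalkine, was at 14.1, 22 and 19 FPKM in CMS and 10.9, 15.9 and 13.6 FPKM in Vehicle with overlap (0.43, SE 0.18). Its ligand Cx3cl1, made by neurons, was at 167, 164 and 146 FPKM in CMS and 221, 204 and 193 FPKM in Vehicle and fell by 0.38 (SE 0.08; adjusted p = 0.0444). Aif1 and Tmem119, further microglial markers, overlapped between the groups. Csf1r, the receptor on which microglia depend, was at 28, 36.3 and 30.2 FPKM in CMS and 21.9, 25.4 and 26.2 FPKM in Vehicle, without overlap, at an adjusted p of 0.13. Cd9, listed with activated microglia but also abundant in myelin, rose by 1.26 (SE 0.22).

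Of 29 complement genes 0 passed limma, with 2 higher and 1 lower at an unadjusted p under 0.05, and voom called 1 lower; the median was 0.14 (0.08 without Vehicle replicate 1). C3, the central component, was uneven in the stressed group, at 2.52, 4.9 and 6.22 FPKM in CMS replicates 1 to 3, and stood at 2.04, 1.02 and 1.72 FPKM in Vehicle, without overlap. Its log2 change of 1.41 (SE 0.38) did not pass (adjusted p = 0.0717, and 0.0583 by voom) and lay between 1.14 and 1.78 when single libraries were left out. These values rest on 218, 368 and 535 reads in CMS and 170, 80 and 127 reads in Vehicle. C1qb was at 33.5, 41.9 and 38.9 FPKM in CMS and 25.6, 30.2 and 32.5 FPKM in Vehicle, and C1qa at 51.1, 67.7 and 63.3 FPKM in CMS and 52.1, 56.5 and 55.4 FPKM in Vehicle, where CMS replicate 1 was the lowest of the 6. Sez6l2, a neuronal protein with complement control domains, was the lower gene, at -0.40 (SE 0.10; adjusted p = 0.055, and 0.0445 by voom). Rela, a subunit of NF-kB, was at 0.20 (SE 0.12). The NF-kB list gave 0 calls in limma and voom (3 higher at an unadjusted p under 0.05), and Tnf and Il1b were below the level tested. The lists of antigen presentation and of the interferon response also gave 0 calls in limma and voom, with 0 and 1 genes higher and 0 lower at an unadjusted p under 0.05.

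**Figure D4:**
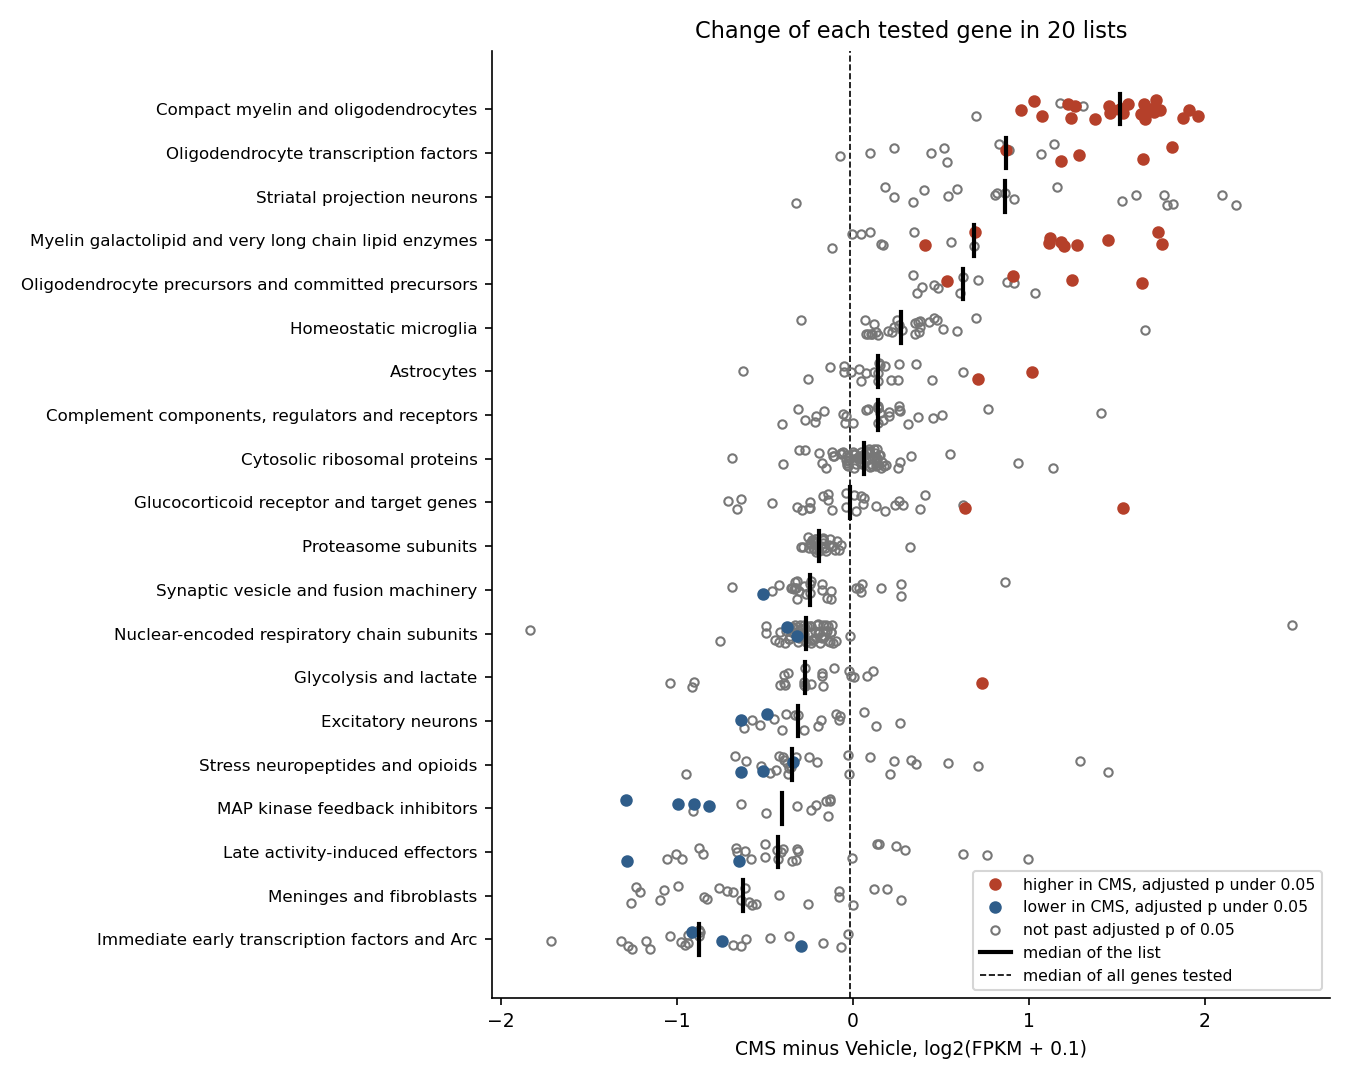
CMS minus Vehicle difference in log2(FPKM + 0.1) of every tested gene in 20 lists, ordered by the list median (black bars), with the median of all genes at -0.02 dashed. Filled points passed an adjusted p of 0.05 (red higher and blue lower in CMS); 25 of 29 compact myelin genes are filled, against 3 of 25 immediate early genes and none of 33 proteasome genes.

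Nuclear genes of energy metabolism stood slightly lower. Of 13 genes of the mitochondrial genome 12 lay above 0, with a median of 0.10 (-0.08 without CMS replicate 2), and 0 passed limma or voom. Of 66 subunits of the respiratory chain encoded in the nucleus 65 lay below 0, 2 fell, and 37 were lower at an unadjusted p under 0.05, with a median of -0.27. The 1 subunit above 0 stood at 2.49 and did not pass limma or voom. Atp5pd, a stalk subunit of ATP synthase, was at 199.5, 210.3 and 201 FPKM in CMS and 269.9, 269 and 251 FPKM in Vehicle and fell by 0.37 (SE 0.07; adjusted p = 0.0295). Ndufv1, a core subunit of complex I, was at 99.6, 102 and 104 FPKM in CMS and 128, 132 and 121 FPKM in Vehicle and fell by 0.32 (SE 0.06). In both genes the CMS libraries lay close together and under all Vehicle libraries. Of 23 genes of glycolysis and lactate 19 lay below 0, with a median of -0.27. In limma Slc16a1 rose and none fell, although 11 were lower before adjustment (p under 0.05), and voom called 1 higher and 1 lower. Aldoa, the aldolase of brain and muscle, was at 864, 785 and 924 FPKM in CMS and 1158, 1103 and 1051 FPKM in Vehicle, without overlap (-0.37, SE 0.09, adjusted p = 0.055). Of 33 proteasome subunits 32 lay below 0 with a median of -0.19, and 0 passed limma or voom (17 lower and 1 higher at an unadjusted p under 0.05). Of the cytosolic ribosomal proteins 50 of 70 lay above 0, with a median of 0.06 and 0 calls by limma or voom (4 higher and 1 lower at an unadjusted p under 0.05). With quantile normalization the medians were -0.16 for the respiratory chain and glycolysis lists and -0.10 for the proteasome.

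Short and long genes differed across the whole table, and this stands beside those lists and the calls as a whole. When protein-coding genes were put in 5 bins of equal size by length, the median change was -0.10, -0.06, -0.02, 0.01 and 0.08 from the shortest to the longest. In the shortest bin (57 to 1344 bases) 47 genes rose and 79 fell, and in the longest (4000 to 27070 bases) 135 rose and 4 fell. Each CMS library showed it, with medians of -0.11, -0.08 and -0.09 in the shortest bin and 0.11, 0.07 and 0.07 in the longest, while the bin medians of the Vehicle libraries lay between -0.008 and 0.011. The median length was 739.5 bases in the respiratory chain list, 1519 in the proteasome list and 679 in the ribosomal list, against 2140 over all genes tested. It was 2249 in the compact myelin list, 2562 in the immediate early list, 1706.5 in the interneuron list and 1775 in the stress peptide list. Over the genes called it was 2938.5 bases for the higher and 1374 for the lower genes. The part of gene length in these differences was not tested.

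**Figure D5:**
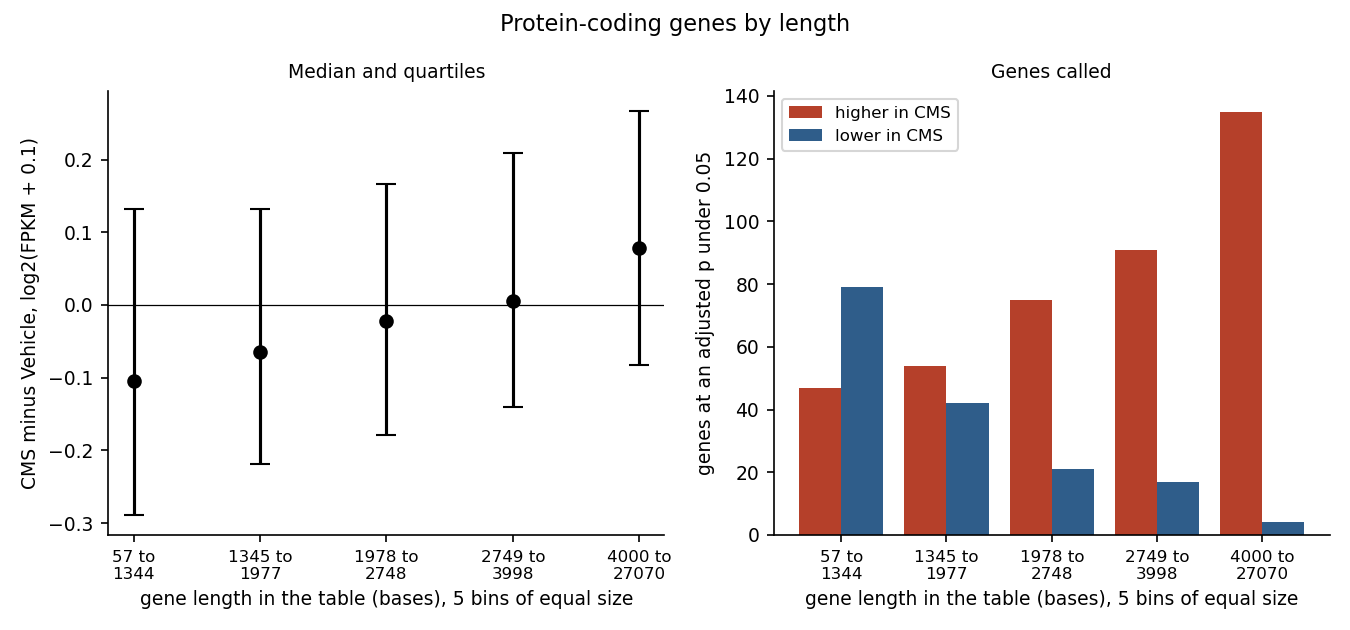
Left, the median (points) and quartiles (bars) of the CMS minus Vehicle difference in log2(FPKM + 0.1) for protein-coding genes in 5 bins of length; right, the number of genes in each bin that were higher (red) or lower (blue) in CMS at an adjusted p under 0.05. The median is -0.10 in the shortest bin and 0.08 in the longest, and lower genes outnumber higher ones in the shortest bin alone.

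Several other families held genes of both directions. Of 39 lysosomal genes 4 rose and 1 fell. Npc1, which carries cholesterol out of lysosomes, was at 17.1, 19 and 17 FPKM in CMS and 7.36, 7.35 and 9.8 FPKM in Vehicle and rose by 1.12 (SE 0.17), while Tpp1, Lamp1 and Lamp2 rose by 0.57, 0.51 and 0.54 and Neu1, a sialidase, fell by 0.42. Among 43 genes of axon guidance Plxnb3, Sema4d, Sema6d and Unc5b rose, and Efnb1, an ephrin ligand, fell by 0.52 (SE 0.11). Plxnb3, a plexin of oligodendrocytes, was at 11.1, 15.1 and 13.6 FPKM in CMS and 4.46, 3.38 and 5.15 FPKM in Vehicle, and Sema4d, a semaphorin that oligodendrocytes carry, at 31.2, 38 and 36 FPKM in CMS and 14.6, 13.9 and 16.3 FPKM in Vehicle. Of 11 genes of the Nogo system, by which myelin proteins act on axons, 4 lay above 0 and 7 below. Mag, one of its ligands in myelin, rose, and 3 receptor genes fell. Rtn4r, the Nogo receptor, was at 44.2, 47.3 and 47.2 FPKM in CMS and 74.4, 57.6 and 66 FPKM in Vehicle (-0.51, SE 0.11, adjusted p = 0.0424). Lingo1, its co-receptor, was at 137, 111 and 151 FPKM in CMS and 188, 178 and 186 FPKM in Vehicle (-0.48, SE 0.10, adjusted p = 0.0424), and Rtn4rl2, a related receptor, fell by 0.61 (SE 0.12). In these 3 receptor genes, as in all 185 lower genes called, all CMS libraries lay below all Vehicle libraries. Erbb3, a neuregulin receptor of the oligodendrocyte lineage, rose by 1.48 (SE 0.30), Gna12, a G protein subunit, by 1.08, Rgs3, a regulator of G proteins, by 0.90 and Ccn2, a matrix signaling protein of deep cortical neurons, by 0.77 (SE 0.12).

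Among the genes with the smallest p were several outside the lists. Upwards these were Strn, a scaffold of the STRIPAK phosphatase complex, at 33.8, 27.5 and 30.1 FPKM in CMS and 15.8, 16.6 and 17.5 FPKM in Vehicle, Eps15, an adaptor of endocytosis (0.47, SE 0.06), Wipi1, a phosphoinositide-binding protein of autophagosomes (0.90, SE 0.12), and Mtmr2, a phosphoinositide phosphatase that myelin of peripheral nerves needs. Mtmr2 was at 43, 35.8 and 37 FPKM in CMS and 25.1, 25.5 and 25.2 FPKM in Vehicle, with the Vehicle libraries equal to within 1 FPKM. Otud7b, a deubiquitinase, rose by 1.25 (SE 0.17) and Atp11a, a flippase of membrane lipids, by 1.00 (SE 0.14). Downwards Nme1, a nucleoside diphosphate kinase (ENSRNOG00000002693, on chromosome 10 from 81657153 to 81666523 of Rnor_6.0), was first. It was at 145, 140.2 and 146 FPKM in CMS and 221, 229 and 207 FPKM in Vehicle and fell by 0.61 (SE 0.07; adjusted p = 0.0263). Cltb, a clathrin light chain of neurons, was at 119, 121 and 123 FPKM in CMS and 166, 162 and 156 FPKM in Vehicle, and the X-linked genes Bex2 and Bex3, small adaptor proteins of neurons, fell by 0.59 (SE 0.09) and 0.47 (SE 0.07). Bex genes resemble each other in sequence, so their reads may be split unevenly. Dnajb5, a co-chaperone, was at 43.1, 44.3 and 38.6 FPKM in CMS and 63.9, 68.8 and 56.9 FPKM in Vehicle and fell by 0.59 (SE 0.09). Lsm7, of the spliceosome, Mrpl54, of the mitochondrial ribosome, Olfm2 and Ralyl fell by 0.40 to 0.58. The rule that named these genes required groups that do not overlap.

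The largest fall among the protein-coding genes called was that of LOC100911575, annotated as a copy of the ribosomal protein P2 (ENSRNOG00000037607, on chromosome 1 from 214428526 to 214430515 of Rnor_6.0). It was at 6.39, 15.7 and 4.5 FPKM in CMS, against 192, 179 and 189 FPKM in Vehicle (-4.58, SE 0.99, adjusted p = 0.0422), and voom did not call it (adjusted p = 0.0545). The CMS+PHL libraries stood at 136, 47.1 and 5.17 FPKM, far apart from each other. The gene on the same chromosome named Rplp2 has the same length and was below the level tested, so how reads were shared between the copies is uncertain and the value is not read as a change of the protein. Rln1, relaxin, fell by 1.44 (SE 0.26), at 1.9, 1.57 and 2.74 FPKM in CMS and 5.19, 5.96 and 5.78 FPKM in Vehicle. Adamtsl2, a secreted matrix protein, Sertad1, a regulator of transcription, and Gpr135, an orphan receptor, fell by 0.97, 0.94 and 0.90. Whether reads were counted by strand is not stated, and for genes that overlap on opposite strands the values cannot be told apart.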

How the data were processed

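The authors deposited 1 table of FPKM values for 34463 genes in 9 libraries, normalized by them to gene length and library size. HISAT2 and Rnor_6.0 are named in the submitters' processing notes, while the tool used for counting, its strand setting and its annotation were not given in the sources used here. Groups came from the labels.

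Genes with a mean of at least 0.5 FPKM were kept, and log2(FPKM + 0.1) was computed from the deposited FPKM and fitted with limma 3.58.1 (R 4.3.3), 3 groups in 1 model with a variance trend, Benjamini-Hochberg adjustment over the 16159 genes and a threshold of 0.05. All values in the table were whole multiples of the value of 1 read (100% of values in every library, tolerance 1e-06 of a read), so reads were recovered and voom was run on them as an alternative. Depth was 13913639 to 16328673 reads, and intervals cover counting error only. Other alternatives were the pseudocount (1 and 0.01), the filter, the scaling, the moderation, library weights, the 6 libraries alone, protein-coding genes alone, the replicate number as a block and leaving out each library. The fit was tested on simulated data.

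Genes were named by rule: per direction the 15 protein-coding genes with the smallest p and no overlap between groups and the 10 with the largest change among those called, in each of 55 lists the first 3 members and up to 6 with the smallest p, and genes that the study measured otherwise. Members and lists were chosen with earlier results of these data known. Of 1367 listed symbols 1314 were found in the table under that symbol, 15 under a synonym in RefSeq and 38 not at all. Copies and paralogs share reads in ways the table does not show.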

Additional observations from a re-analysis of the deposited data

How the results depend on the processing

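The 613 calls (428 higher and 185 lower in CMS) depended on how the spread was estimated. Without the filter on low values there were 301 (229 higher, 72 lower), without the variance trend 2 (1 and 1), with library weights 1315 (740 and 575), and the counts of lower genes were 85 with quantile normalization (364 higher) and 69 with the 6 libraries alone (393 higher). Leaving out 1 library gave 0 to 798 calls (0 to 570.0 higher, 0 to 228 lower). All 613 genes kept an unadjusted p under 0.05 without any single CMS or Vehicle library, but they had been chosen for a small p in these libraries. Their direction could not change there, since the groups overlapped in no called gene. The labels do not state whether replicate numbers pair the samples. Same-numbered libraries were nearly uncorrelated (0.02, -0.06 and -0.04, and only replicate 1 correlated best with its own number), which cannot show whether they were handled together. With the replicate number as a block there were 0 calls over 9 libraries and 134 (125 higher, 9 lower) over 6, and the cause was not tested. The pseudocount, a filter at 1 FPKM, scaling by total reads or median of ratios, robust moderation, voom and protein-coding genes alone kept the total within 1.5 times, and no called gene named here changed direction in any setting. With 3 libraries a group, no exact test of a single gene can go below p = 0.1.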

Other observations

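A pair of microRNA genes that lie side by side was lower in level in the stressed cortex. They were chosen after their values had been seen and are known as targets of CREB in active neurons. Mir212 was at 9.2, 9.34 and 11.9 FPKM in the CMS libraries and 27.5, 31.1 and 26 FPKM in the Vehicle libraries, a log2 change of -1.47 (SE 0.17; limma adjusted p = 0.0263, and 0.0254 by voom). Here all Vehicle libraries lay far above all CMS libraries, Vehicle replicate 3 included, and the change stayed between -1.59 and -1.4 when single libraries were left out. The CMS+PHL libraries were at 29.7, 35.8 and 22.8 FPKM. Mir132 was at 44.6, 23.3 and 29.8 FPKM in CMS and 53.1, 96.1 and 50.2 FPKM in Vehicle, without overlap, and did not pass (-1.01, SE 0.29, adjusted p = 0.0842). The values rest on few reads, for Mir212 17, 15 and 22 in CMS and 49, 52 and 41 in Vehicle, and these libraries measure the region of the precursor (111 bases, on chromosome 10 from 62014702 to 62014812 of Rnor_6.0) and not the mature microRNA. The 3p arms are shown because they share 1 seed, bases 2 to 8 in capitals (RefSeq, GRCr8).
rno-miR-212-3p: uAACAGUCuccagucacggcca
rno-miR-132-3p: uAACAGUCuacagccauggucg

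Ebna1bp2, a factor of ribosome assembly, was also chosen after its values had been seen, since it split the libraries within a group as LOC100911575 did. It was at 0.139, 0.373 and 0.232 FPKM in CMS and 5.33, 7.02 and 6.94 FPKM in Vehicle, a log2 change of -4.27 that did not pass (SE 1.05; adjusted p = 0.0582). The CMS+PHL libraries stood at 7.46, 0.243 and 0.205 FPKM, 1 of them with the Vehicle libraries and the others with the CMS libraries.

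Channels and receptors outside the named families showed little. Of 23 voltage-gated sodium and calcium channel genes 0 passed limma or voom, and 0 had an unadjusted p under 0.05 in either direction. Of 29 genes of monoamine and acetylcholine signaling 0 passed limma or voom, with 4 lower and 0 higher at an unadjusted p under 0.05, and the list median was -0.20 (0.02 without CMS replicate 2). Of 19 circadian clock genes 0 passed limma and 1 higher gene passed voom, with 2 higher and 2 lower at an unadjusted p under 0.05.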
